A study of Homo sapiens with 10 samples.

Results

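The step from 80 to 160 µM olaparib compares 2 populations of the ovarian cancer line Kuramochi, T160 against T80. Its members are all cells whose names carry the concentration 160 µM (2645 cells) or 80 µM (2262 cells), 4907 of the 18209 cells of the series. Kuramochi is labelled epithelial and BRCA2-mutant, and that holds for every population. The line went through 1 escalation of olaparib, in which cells were kept at each concentration until confluent. The escalation gave untreated cells (C) and populations named for 1, 2.5, 5, 10, 20, 40, 80, 160 and 320 µM (T1 to T320). Each population is 1 inDrop library, a droplet method that barcodes single cells and counts molecular identifiers (UMIs). With 1 library on each side there is no replicate and no test. A difference between T160 and T80 cannot be told apart from a difference between 2 libraries, and all intervals below are 95% intervals of counting error only.

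Olaparib inhibits PARP enzymes, which mark DNA breaks with poly(ADP-ribose) and recruit repair factors. BRCA2 acts in homologous recombination, and cells that lack this repair are usually sensitive to PARP inhibition. High-grade serous ovarian carcinoma, the tumour type Kuramochi is used to model, is thought to arise mostly from Müllerian epithelium of the fallopian tube. That epithelium is marked by transcription factors such as PAX8, SOX17, EMX2 and MECOM. Carcinoma cells can also take on mesenchymal features, with fibronectin, fibrillar collagens and contractile proteins.

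The 2 libraries were of like depth, with 7524689 UMIs in T80 and 7624188 in T160 and a median of 2974.5 and 2776 UMIs per cell. Mitochondrial UMIs made up 8.19% and 9.31%. The label epithelial was met in part: keratin 8 (KRT8) stood at 147 and 129 CPM over all genes (UMI counts scaled to a common total). Keratin 18 (KRT18) stood at 264 and 92.2, but keratin 7 (KRT7) at only 4.92 and 5.12 and the adhesion protein EPCAM at 0 and 3.80. All of these genes share sequence with other genes. A further epithelial adhesion gene, CDH1, was not among the genes of the matrix. Many markers of other cell types were not in the data or listed at 0, while EGFL7 and NCAM1 were not low in T160. Low genes may be listed at 0, so a 0 here is not a measured absence. These values are CPM over genes without near copies. The immune list had 2 of 12 genes in the data and 1 without near copies, CD74, at 49.2 in T80 and 0 in T160. Of 4 endothelial genes, EGFL7 was at 61.2 and 130 and VWF, CDH5 and KDR at 0 in both. The 3 mesothelial genes summed to 5.66 and 0. The 3 neural genes summed to 251 and 371, with NCAM1, a neural adhesion molecule, at 53.1 and 127. The libraries had 43 barcodes in common, and leaving those cells out gave 162 and 159 genes past the threshold used below, against 163 and 160 with them.

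The table that the authors deposited with the matrix gives a state to 910 of the 2262 T80 cells and to 1348 of the 2645 T160 cells. The name of the table refers to G1, a phase of the cell cycle. In T80, 838 of the listed cells (92.1%, exact interval 90.1 to 93.8) were in state S4 and 72 (7.91%) in S3. In T160, 1348 of 1348 were in S5 (100%, 99.7 to 100). No listed T80 cell was in S5, which allows a share of up to 0.330% if 3 counts are taken as the limit. This limit is not an exact interval like those above. No state occurs among the listed cells of both libraries, and the change of state and the change of library cannot be told apart.

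Genes with near copies elsewhere were set aside before scaling, because their counts dropped between these libraries with the share of sequence they have in common with other genes. Of genes with none of their whole transcript shared, 2.40% were at least 2-fold lower in T160, and of the 28 genes with over 80% shared it was 42.9%. By the last 500 bases it was 2.29% with none shared, 8.67% between 10% and 50%, 22.1% between 50% and 80%, and 15.3% over 80%. The values of this check are CPM over all genes, and the share was counted in 31-mers. The histone gene H3F3A went from 561 to 0 and EIF3C, a translation initiation factor, from 242 to 0. All further values are for the 9226 genes with at most 10% of the last 500 bases shared, and CPM is scaled to the UMIs of these genes. They held 54.0% of the UMIs in T80 and 62.0% in T160.

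Among 4674 measured genes (at least 50 CPM in T80 or T160), 163 were at least 2-fold higher in T160 (3.49%) and 160 at least 2-fold lower (3.42%). A difference here is that of log2(CPM + 10), T160 minus T80, and at least 2-fold means a difference of 1 or more, which understates the fold of low genes. The median gene stood at 0.08, with quartiles of -0.23 and 0.37. A gene under 50 CPM in T80 was measured only if it reached 50 in T160, so it could count as higher but not lower. The reverse held for genes under 50 CPM in T160. The counts of the lists below are partly set by this minimum. Nearest to the threshold were the cystine transporter SLC7A11 just inside it (54.3 and 119 CPM, difference 1.00) and SDK2 just outside it (22.1 and 54.0 CPM, 0.99). On the other side were SEMA3A just inside (329 and 159 CPM, -1.001) and CD81 just outside (663 and 327 CPM, -0.997). Other scalings divided the calls differently. TMM factors gave 115 higher and 189 lower and DESeq2 size factors 115 and 184. CPM over all genes, sharing ones included, gave 166 and 74. Values are then smaller, 3185 genes reached the same minimum, and the median difference was 0.25, against 0.08. Without any gene that shares end sequence or over 10% of its whole transcript, 3111 genes were measured, of which 120 were higher (3.86%) and 95 lower (3.05%).

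**Figure D1:**
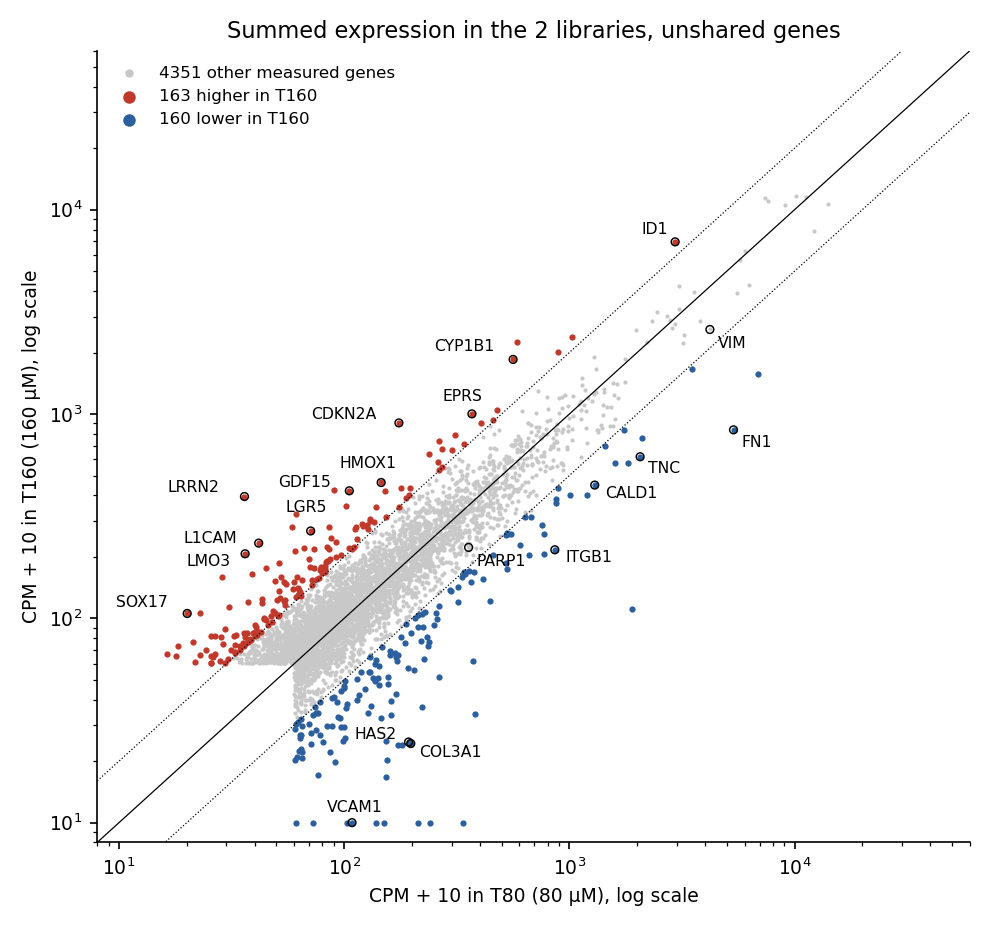
Level of each measured gene in T80 (x axis) and T160 (y axis), as CPM + 10 on log scales, where the solid line marks equal levels and the dotted lines the 2-fold threshold; circles mark genes named in the text, of which LRRN2 stands furthest above the line and ID1 is the most abundant of the higher genes, while FN1 is among the most abundant of the lower ones.

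The gene furthest above its T80 level was LRRN2, which codes for a leucine-rich repeat protein of the neuronal membrane. It stood at 74.5 CPM in C, between 111 and 186 from T1 to T20, at 21.4 in T40 and 26.1 in T80, then at 385 in T160 and 101 in T320. The T160 library was 14.8-fold above T80 (12.1 to 18.1) and above every other population. After each cell was thinned to 1000 UMIs of these genes, LRRN2 was seen in 2.45% of T80 cells and 24.02% of T160 cells (4.07% and 30.0% unthinned). Thinning left out 510 T80 and 809 T160 cells, and with 1 cell line there is no cell type lacking the gene to set a background share. LRRN2 lies at chr1:204617170-204685733 (GRCh38, minus strand), in a stretch of chromosome 1 whose genes were higher as a group.

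Several other genes with the largest differences are known from neurons or code for adhesion and signalling proteins. LMO3, a LIM-only transcription cofactor, stood at 26.3 CPM in T80 and 197 in T160 (7.49-fold, 6.12 to 9.23). L1CAM, an adhesion molecule of the nervous system that some carcinomas also carry, stood at 31.7 and 223 (7.04-fold, 5.86 to 8.52). FGF18, a fibroblast growth factor, stood at 18.7 and 149. CLDN11, a claudin of tight junctions, stood at 50.9 and 314, with 28.6% of its whole transcript shared. LGR5, a receptor for R-spondins that strengthens Wnt signalling, stood at 61.0 and 258, and CPE, an enzyme that processes peptide hormones, at 35.2 and 166. PLXNA2, a semaphorin receptor, stood at 50.7 and 204. The receptor tyrosine kinase EPHB2 stood at 44.0 and 141. L1CAM, LMO3, LRRN2, LGR5 and PLXNA2 were each higher in T160 than in T320 as well. LGR5 and FGF18 did not exceed their levels in untreated cells (268 and 236). PLXNA2 had stood at 218 in T5 and 212 in T10, and EPHB2 at 154 in T1, each above its T160 level. Lower in level but far apart were LPAR3, a receptor for lysophosphatidic acid (8.36 and 63.1), the secreted METRNL (20.7 and 103) and CGNL1, a junction protein (7.87 and 55.6).

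Lineage factors of Müllerian epithelium were higher in T160 than in T80, with SOX17 and EMX2 still below their levels in the first populations. SOX17, a transcription factor of that epithelium, stood at 689 CPM in C, 245 in T1, 37.8 in T10 and 10.1 in T80, then at 95.6 in T160 and 62.0 in T320. The T160 level was 9.49-fold that of T80 (6.88 to 13.4) and still below each level from C to T5. EMX2, a homeobox gene needed for the urogenital tract, stood at 404 in T1, 11.3 in T80 and 66.6 in T160 (5.89-fold, 4.31 to 8.21). MECOM, a zinc finger factor often amplified in serous carcinoma, was between 58.3 and 125 from C to T20, listed at 0 in T40, and stood at 12.8 in T80 and 96.1 in T160 (7.51-fold, 5.63 to 10.2). A gene listed at 0 may have had UMIs in a few cells, so it is not a measured absence. SPON1, a secreted matrix protein, stood at 30.0 and 82.3, but at 16.4 in T320. Of the serous and Müllerian list, 9 of 20 genes were measured, 4 were higher and 0 lower, with a median of 0.84. The shares over all measured genes were 3.49% higher and 3.42% lower. The 4 higher members reached 50 CPM in T160 alone, so the minimum let them in because they were high there. The minimum also kept out members that were lower, such as CLDN16, a claudin (41.1 and 15.7 CPM), and WT1. The count is therefore partly set by the filter and is no sign of a direction of the list. That median rests on few low genes: relative to the median of all genes it was 0.76, and 0.39 with a minimum of 20 CPM, with the stricter sharing limit or with CPM over all genes. WFDC2 (HE4), a secreted marker of ovarian carcinoma, was the member furthest the other way (1555 and 861, difference -0.85). WT1, a marker of serous carcinoma, was at 26.3 CPM in T80 and listed at 0 in T160 and T320. PAX8 shares 31.6% of its end and was not used.

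CDKN2A, the locus of the cell cycle inhibitors p16INK4a and p14ARF, followed a like course at a higher level. It was at 2123 CPM in C and 797 in T20, then at 175 in T40 and 165 in T80, and T160 held 895 and T320 401. T160 was 5.42-fold above T80 (5.00 to 5.89). Within listed cells it was 56.0 in S4 and 827 in the few S3 cells of T80, and 952 in S5 of T160. The end of CDKN2A overlaps an exon of another gene, so its reads could be divided between them. It was seen in 12.7% of thinned T80 cells and 50.2% of thinned T160 cells (18.5% and 58.9% unthinned).

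Some genes known to be induced by stress, chosen here from the largest rises and from several lists, were higher in T160. They do not make up a list of their own, and the heat shock and chaperone list had 0 of 12 measured genes higher and 2 lower, with a median of -0.28. The lower ones were the chaperones HSPD1 (514 and 176; 48.7% of its transcript shared) and HSP90AA1 (3511 and 1658; 35.4% shared). GDF15, a stress cytokine of the TGF-beta family, was between 11.2 and 65.9 CPM from C to T40, 95.4 in T80 and 411 in T160 (4.31-fold, 3.86 to 4.82). HMOX1, the haem oxygenase induced by oxidative stress, stood at 25.7 in C, 136 in T80, 452 in T160 and 367 in T320. For HMOX1 the difference was 1.82 in listed cells and 0.81 in unlisted cells. BMF, a pro-apoptotic BH3-only protein, was at most 43.7 from C to T80 and 154 in T160 (5.32-fold, 4.37 to 6.51). CHAC1, which degrades glutathione and is induced by amino acid and ER stress, was between 20.1 and 53.9 from C to T80 and 138 in T160. ATF3, a stress-induced transcription factor, stood at 15.7 and 71.7, below the 192 CPM of T40. In all, 17 genes (0.364%) were at least 2-fold above each population from C to T80, among them GDF15, HMOX1, BMF, CHAC1, LRRN2, the transcription factor ATOH8 (41.6 and 178), the sterol-binding OSBPL3 (27.3 and 110) and ID1. Of these 17, 2 lie on chromosome 1.

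The amino acid and ER stress list had 16 of 25 genes measured, of which 5 were higher and 0 lower, with a median of 0.28. Of all measured genes 3.49% were higher. PHGDH, the first enzyme of serine synthesis, stood at 56.1 and 212 CPM (3.78-fold, 3.27 to 4.38), and it had been 240 in C. STC2, a secreted glycoprotein, stood at 49.2 and 130, and TRIB3, a pseudokinase induced by ATF4, at 30.0 and 71.5. SLC7A11 and CHAC1, already named, were the others. CHAC1 (45.2 CPM in T80), STC2 and TRIB3 were under 50 CPM in T80, so the minimum let them in because they were high in T160. The count is therefore partly set by the filter and is no sign of a direction of the list. PSAT1, the next enzyme of serine synthesis, was at 260 and 304, and the ATF4-related factor CEBPB at 424 and 428. Among aminoacyl-tRNA synthetases, 2 of 17 were higher and 0 lower (median 0.46): EPRS at 359 and 992 and YARS at 116 and 275. Both lie on chromosome 1, and without that chromosome the list stood 0.33 above the median of all genes, against 0.38 with it. Of 13 NRF2 targets 2 were higher (HMOX1 and SLC7A11) and 0 lower (median 0.53), and the quinone reductase NQO1 stood at 313 and 595. SLC7A11, counted in both lists, was past 2-fold only narrowly. Its difference was 0.90 with TMM scaling, 0.91 with DESeq2 size factors, 0.65 in thinned cells, 0.98 without shared barcodes and 0.69 with a pseudocount of 50 CPM. Of 12 hypoxia targets 3 were higher and 0 lower (median 0.52). These were the histone demethylase KDM3A (74.3 and 181), the kinase PDK1, which restrains pyruvate dehydrogenase (30.5 and 80.4), and the MYC antagonist MXI1 (95.4 and 211), whose difference was 0.96 with TMM scaling. PDK1 was also under 50 CPM in T80 and was measured only through T160. With a pseudocount of 50 CPM none of the 3 hypoxia targets, nor CHAC1, STC2 and YARS, was past 2-fold.

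The TGATGNAA motif, the core of the elements that ATF4 and C/EBP factors can bind, was searched on both strands in the 250 bases before each gene's start in RefSeq (GRCh38.p14). It was found in 870 of 27305 promoters (3.19%) and in 1 of 14 promoters matched for the amino acid and ER stress list, that of CHAC1. The CHAC1 promoter is shown for that match (chr15:40953221-40953470, plus strand), with the motif in capitals on the opposite strand, 209 bases before the start.
CHAC1: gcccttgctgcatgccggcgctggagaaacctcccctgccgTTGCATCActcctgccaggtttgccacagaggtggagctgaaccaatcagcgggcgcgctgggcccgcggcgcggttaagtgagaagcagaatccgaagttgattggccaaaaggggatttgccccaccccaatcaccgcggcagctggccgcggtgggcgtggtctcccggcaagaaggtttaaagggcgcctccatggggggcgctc
A match in these letters is a description and not a site shown to be bound.

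The most abundant of the higher genes include regulators already strong in T80. ID1, an inhibitor of basic helix-loop-helix factors and a target of BMP signals, ranged between 1579 and 2939 CPM from C to T80 and stood at 6952 in T160 (2.37-fold, 2.32 to 2.42). CYP1B1, a cytochrome P450 that oxidises oestrogens and xenobiotics, stood at 552 and 1840, with 10.8% of its transcript shared. HEG1, a receptor at cell junctions, stood at 1021 and 2369. UCHL1, a deubiquitinase of neurons, stood at 884 and 2013, below its 2148 in C. The TGF-beta and BMP list holds targets and also ligands, receptors and ligand-binding proteins. Of its 16 measured genes, 2 were higher (ID1 and SMAD6, an inhibitor of BMP signals) and 2 lower. Over all measured genes the shares were 3.49% and 3.42%. SMAD6 (24.3 and 62.8 CPM) was measured only through T160. The lower ones were the ligand TGFB2 (70.6 and 14.8) and LTBP1, which stores the ligand in the matrix (92.0 and 26.4). Both were measured only through T80. The list's median was 0.54.

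Among lists with at least 3 measured members, matrix genes had the lowest median. Of 10 measured fibrillar collagens and matrix genes, 0 were higher and 5 lower, with a median of -0.98. FN1, fibronectin, was between 3458 and 6502 CPM from T2.5 to T80, 5348 in T80 itself, and stood at 827 in T160 and 1085 in T320. T80 was 6.47-fold above T160 (6.25 to 6.70), and both T160 and T320 were above untreated cells (304). FN1 was seen in 87.3% of thinned T80 cells and 27.2% of thinned T160 cells (91.1% and 29.1% unthinned). COL3A1, a fibrillar collagen, had peaked at 3300 in T5 and stood at 183 in T80, 14.8 in T160 and 0 in T320. COL12A1, a collagen bound to fibrils, stood at 152 and 29.2 (5.20-fold lower, 4.31 to 6.30). TNC, tenascin C, stood at 2052 and 608 and VCAN, versican, at 188 and 74.7. The end of VCAN overlaps another gene. COL3A1 and COL12A1 were measured only through T80, so each could count as lower but not higher. FN1, TNC and VCAN passed the minimum in both libraries. The count and the median of the list are therefore partly set by the filter. COL6A2 was the one member with a difference above the median of all genes (76.7 and 120). COL3A1 is also the fibroblast marker list's one measured gene. Of the others, COL1A1 was at 7.38 and 0 CPM, PDGFRA at 20.9 and 7.62 and PDGFRB at 0 in both libraries. The 4 genes summed to 211 and 22.4 CPM, and their part in the lower matrix genes was not tested.

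The FN1 promoter holds 1 match of the 8-base cyclic AMP response element TGACGTCA, which reads the same on both strands, 183 bases before the start (chr2:215436069-215436318, minus strand, GRCh38.p14). This element is found in 482 of 27305 promoters (1.77%) and in 1 of 8 promoters matched for the matrix list. The sequence is shown because FN1 is the most abundant gene of that list in T80, and the capitals mark the match.
FN1: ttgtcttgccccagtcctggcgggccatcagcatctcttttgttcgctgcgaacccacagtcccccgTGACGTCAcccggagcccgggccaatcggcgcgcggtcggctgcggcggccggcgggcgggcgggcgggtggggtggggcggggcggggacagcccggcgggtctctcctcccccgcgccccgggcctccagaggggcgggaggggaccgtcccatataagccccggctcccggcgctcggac

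Integrins and adhesion genes were divided, with 2 of 14 measured higher (L1CAM and NCAM1), 3 lower (VCAM1, ITGB1 and ALCAM) and a median of -0.12. This and the next 2 lists are to be read beside 3.49% of all measured genes higher and 3.42% lower. L1CAM was measured only through T160 and VCAM1 only through T80, so each could count in 1 direction only. VCAM1, an immunoglobulin-family adhesion molecule, was listed at 0 from C to T5, stood at 188 CPM in T10, 247 in T40 and 98.4 in T80, and was listed at 0 in T160 and T320. HAS2, which makes hyaluronan, stood at 188 and 14.4 (13.04-fold lower, 10.2 to 17.0). ITGB1, the beta subunit of many integrins, stood at 852 and 207, with 15.2% of its transcript shared. ALCAM, an adhesion molecule of the immunoglobulin family, stood at 159 and 57.8. CALD1, an actin-binding regulator of contraction, stood at 1286 and 439. Of 13 measured actin and contractility genes 3 were lower and 0 higher (median -0.56), with the myosin light chain MYL9 (347 and 160) and the tropomyosin TPM3 (129 and 52.3) besides CALD1. With CPM over all genes MYL9 (-0.86) and TPM3 (-0.91) were no longer past 2-fold. Of 12 mesenchymal genes 2 were lower and 0 higher (median -0.60), and these 2, FN1 and CALD1, belong to the other lists too. VIM, vimentin, stood at 4198 and 2583 (difference -0.70; 47.4% of its transcript shared), CD44 at 403 and 329 and AXL at 212 and 328. Among secreted regulators, IGFBP5 stood at 654 and 193, IGFBP6 at 194 and 45.7 and the protease inhibitor TIMP1 at 994 and 390.

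Some of the largest falls remain doubtful. Of 646 measured genes with over 10% of the whole transcript shared, 36 (5.57%) were lower and 15 higher. EIF5AL1, NLRP2, PABPC3, TCAF1, EIF4H and KRT19 are among the 10 largest falls by the naming rule and belong to this class. In all, 10 measured genes dropped over 4-fold below their lowest level of C to T80 in both T160 and T320, having stood above 60 CPM until then, and 6 of these share over 10%. The remaining 4 were CCDC88C, SULF1, TIE1 and VAMP8, named here after their values were seen. No gene rose by the mirrored rule. Of the genes named in the matrix, adhesion, contractile and signalling groups above as at least 2-fold lower, ITGB1 (15.2%), TPM3 (12.3%) and TGFB2 (26.5%) share over 10%.

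**Figure D2:**
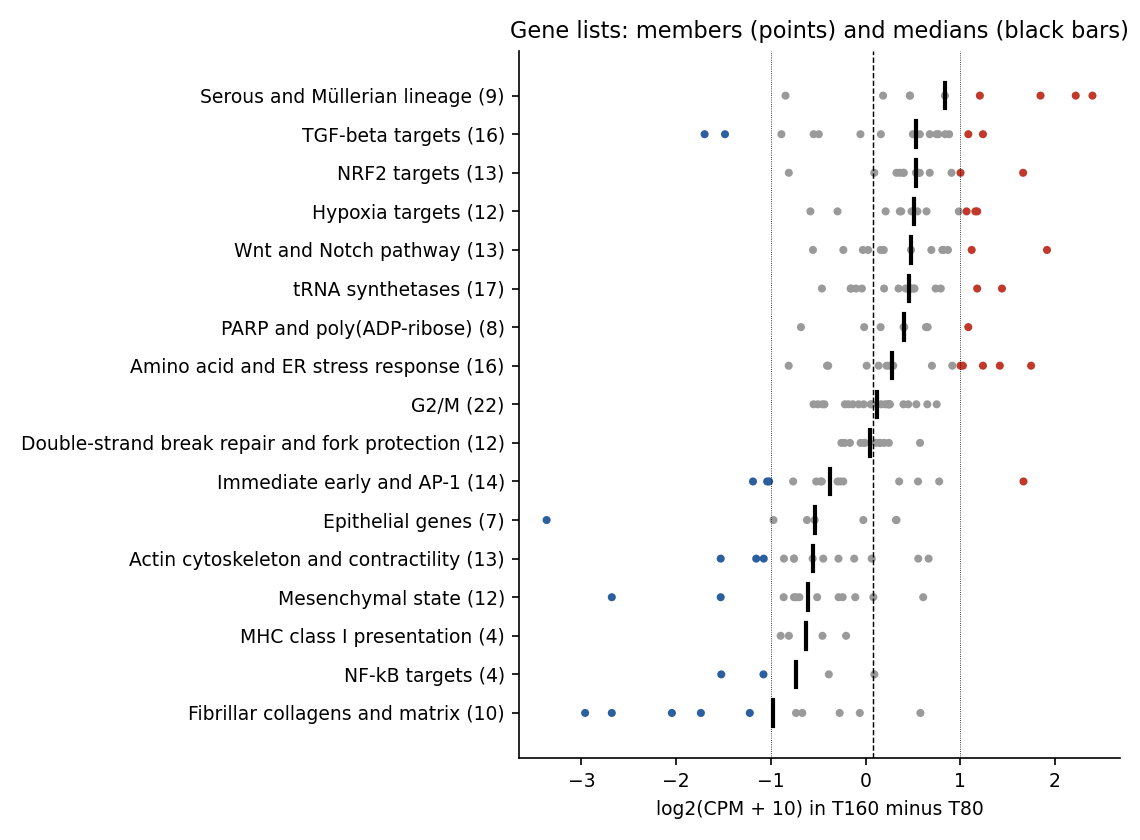
Difference of each measured member (points; red at least 2-fold higher, blue at least 2-fold lower in T160) and the list median (black bar) for lists at least 0.4 from the median of all genes, and for 5 further lists named in the text. Numbers in brackets are measured members, the dashed line is the median of all genes (0.08) and the dotted lines mark -1 and 1; the matrix list has the lowest median and the serous and Müllerian list the highest.

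Genes of the drug's own pathway are read against all measured genes, of which 3.49% were higher and 3.42% lower. PARP1, the main target of olaparib, stood at 347 CPM in T80 and 212 in T160 (1.63-fold lower, 1.51 to 1.77) and at 706 in C and 339 in T320. Of 8 measured genes of poly(ADP-ribose) metabolism 1 was higher, XRCC1, a scaffold of single-strand break repair that binds poly(ADP-ribose) (30.2 and 75.3 CPM), and 0 were lower. XRCC1 shares 16.5% of its transcript, and its difference of 1.08 was 0.99 with TMM or DESeq2 scaling and 0.64 with a pseudocount of 50 CPM. It was under 50 CPM in T80 and was measured only through its T160 level. Of 12 measured genes of double-strand break repair and fork protection, 0 were higher and 0 lower, with a median of 0.05 and a range of -0.25 to 0.58. BRCA1 stood at 74.5 and 81.0 and ATM at 173 and 166. BRCA2 shares sequence and was set aside, and the efflux pump ABCB1 was not analysed here. ABCC5, another efflux pump, stood at 40.6 and 92.2, but at 42.1 in T320, and its difference was 0.92 with TMM scaling. Of 22 G2/M genes 0 were higher and 0 lower (median 0.12). MKI67, a marker of cycling cells, stood at 228 and 167, but at 8.70 and 10.2 in listed cells and 390 and 364 in unlisted ones. The listed cells made up 40.2% of T80 and 51.0% of T160. CDKN1A, the inhibitor p21, stood at 295 and 349. CD70, a surface ligand of the TNF family, stood at 31.3 and 58.8 in listed cells and 94.7 and 91.4 in unlisted cells.

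Several smaller groups were divided, to be read beside 3.49% of all measured genes higher and 3.42% lower. Among immediate early genes, 1 of 14 was higher (ATF3) and 3 lower (median -0.38). EGR1, a transcription factor induced by growth signals, stood at 3588 CPM in T40, 862 in T80 and 373 in T160, and FOS was also lower. Of 4 NF-kB targets 2 were lower, TNFAIP2 (223 and 70.9) and the mitochondrial superoxide dismutase SOD2 (211 and 94.8; 24.1% shared). MHC class I genes were lower by less than 2-fold (4 measured, median -0.63), with B2M, the light chain of the class I complex, at 1639 and 1193. Among p53-response genes GDF15 was higher and BAX, a pro-apoptotic pore protein, lower (127 and 49.7; difference -0.95 with CPM over all genes). Within the insulin-like growth factor axis, IGFBP2, a binding protein abundant in ovarian carcinoma, stood at 394 and 892, opposite to IGFBP5 and IGFBP6. NOTCH3, a Notch receptor, stood at 69.8 and 164, and FGFR2, a fibroblast growth factor receptor, at 50.7 and 18.8. NNMT, which methylates nicotinamide, stood at 121 and 27.1. DTL, a ubiquitin ligase subunit active in S phase, stood at 49.7 and 141.

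Epithelial genes other than the lineage factors gave no stable direction. Of 7 measured, 0 were higher and 1 lower (median -0.54), and the lower one, KRT19, shares 11.4% of its transcript. DSP, desmoplakin of cell junctions, stood at 482 in C, 85.6 in T80, 38.7 in T160 and 90.1 in T320. With a stricter limit on shared sequence the list stood 0.05 above the median of all genes, against -0.62 with the usual limit. In all, 42 lists had at least 3 measured members; 5 medians lay at least 0.4 above the median of all genes and 7 at least 0.4 below it, and 13 lists had no member past 2-fold.

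The genes that were higher in T160 had a lower median in the 2 populations before it than in the earlier ones. Their median level was between 73.0 and 96.8 CPM from C to T20, 52.5 in T40 and 50.7 in T80, 146 in T160 and 91.9 in T320. The T20 and T40 libraries take no part in the comparison of T160 with T80, but T40 is the library nearest to T80. The root mean square of the log2 differences was 0.37 between T40 and T80 and 0.61 between T20 and T80. Genes chosen partly for their level in T80 are therefore likely to stand alike in T40, and the shares with T40 below are no independent check. Of the 163 genes, 41 (25.2%) were at least 2-fold lower in T40 than in T20, against 2.80% of all measured genes, and 1 was higher, against 2.93%. For the 160 lower genes the order was the opposite, with 40 (25%) at least 2-fold higher in T40 than in T20 and 6 lower. Their median level was 78.2 in C and 121 in T20, reached 175 in T40 and 159 in T80, and was down to 43.2 in T160 and 49.7 in T320. Against untreated cells, T40 held 73 of these 160 genes at least 2-fold higher (45.6%, against 9.37% of all measured genes), and 40 of the 163 others at least 2-fold lower (24.5%, against 6.05%). Over all measured genes the median stayed between 96.1 and 105 CPM.

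**Figure D3:**
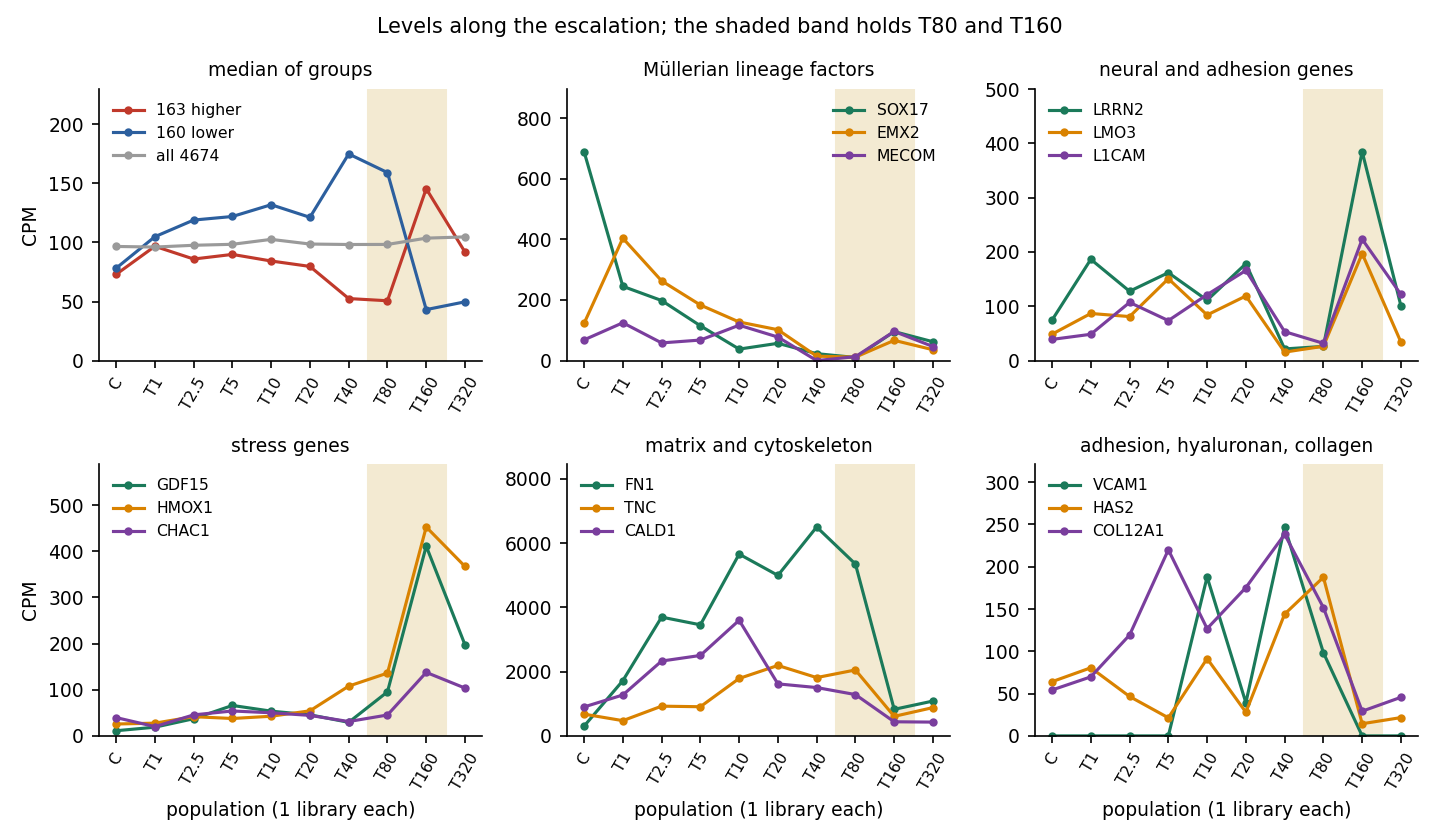
CPM in each of the 10 populations (1 library each): medians of the 163 higher, the 160 lower and all measured genes, and 5 groups of 3 named genes. The shaded band holds T80 and T160; the higher group dips in T40 and T80 and the lower group peaks there.

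The comparison of T320 with T40 also uses other libraries than T80 and T160, although T320 descends from T160 and T40 precedes T80. T40 is the library nearest to T80 and T320 the one nearest to T160 (distances at the end of these results). Genes chosen as apart between T80 and T160 are therefore likely to be apart here, and the shares are no independent check. Doubtful falls such as EIF5AL1 and TCAF1 were listed at 0 in both T160 and T320. Of the 163 higher genes, 49 (30.1%) were at least 2-fold higher in T320 than in T40, against 5.07% of all measured genes, and 5 were lower. Of the 160 lower genes, 107 (66.9%) were at least 2-fold lower, against 4.94%, and 1 was higher. The medians were 0.72 for the higher and -1.31 for the lower genes, beside 0.09 for all. T320 lay between T80 and T160 for 133 of the higher genes, beyond T160 for 14 and at the other side of T80 for 16. For the lower genes these numbers were 106, 49 and 5. Among those that returned were RIPOR3 (6.39 CPM in T80, 56.9 in T160 and 0 in T320), the kinase PKDCC (42.3, 149 and 29.3) and the surface proteoglycan GPC3 (15.5, 50.4 and 9.36). TRIB1, a pseudokinase, and ATF3 were lower in T320 than in T40, where both were high. By list, the medians from T40 to T320 were 0.85 for amino acid and ER stress, 0.80 for tRNA synthetases, 0.61 for NRF2 targets, 0.55 for hypoxia targets and -0.74 for the matrix list. The serous and Müllerian list (-0.32) and the TGF-beta list (-0.47), both above the median of all genes at this step, were below it from T40 to T320.

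**Figure D4:**
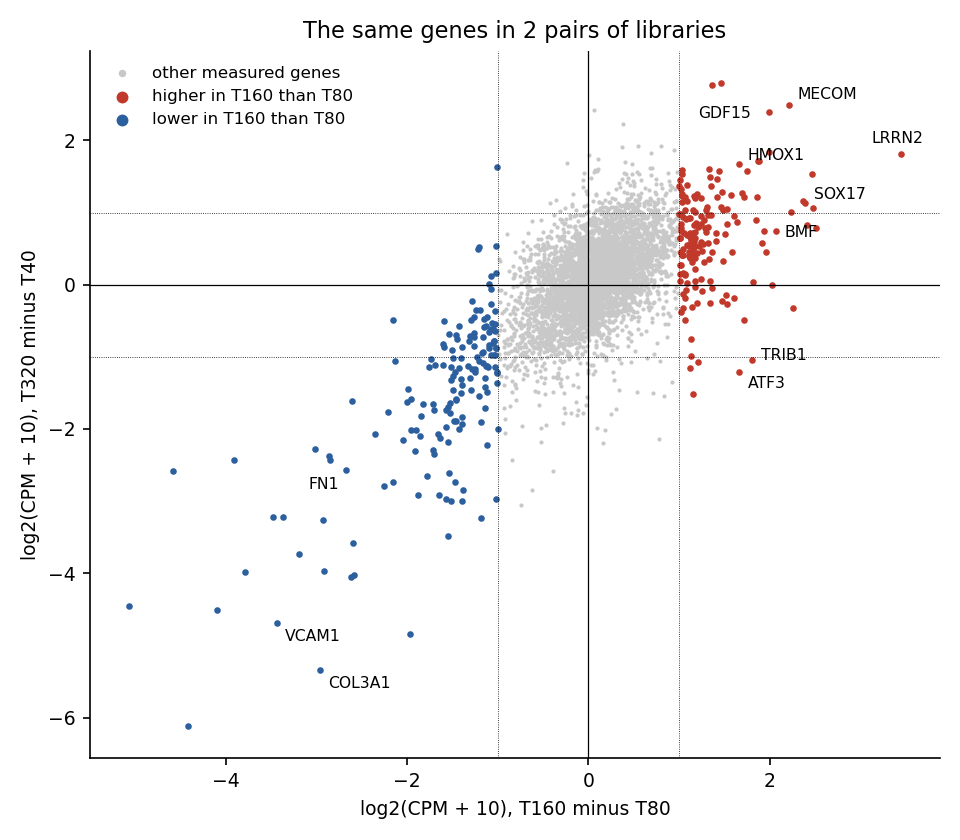
Difference from T80 to T160 (x axis) against difference from T40 to T320 (y axis), both of log2(CPM + 10), for each measured gene; no library is in both. Red points are the 163 higher and blue points the 160 lower genes, and dotted lines mark -1 and 1; most blue points lie below 0 on the y axis, while red points spread over both sides with a median of 0.72.

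Cells with and without a listed state are separate cells of the same libraries. The higher and lower genes were chosen on the sum of these same cells, so the split describes where the difference lies and supports nothing. The median of the 163 higher genes was 1.29 in listed and 1.13 in unlisted cells, and 103 were at least 2-fold higher in both. The median of the 160 lower genes was -1.52 and -1.33, and 117 were at least 2-fold lower in both. LRRN2 was further apart in listed cells (19.1 and 530 CPM) than in unlisted cells (31.2 and 201). FN1 differed to a like extent in both, from 7664 to 1112 in listed cells and from 3646 to 467 in unlisted ones.

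The higher genes were not spread evenly over the chromosomes. Chromosome 1 held 481 of the 4674 measured genes (10.3%) and 52 of the 163 higher ones (31.9%), and its median was 0.38. Of the genes outside it, 111 of 4193 were higher (2.65%). Of the 24 largest rises by the naming rule, 5 lie on chromosome 1, LRRN2 and ATF3 among them. Medians were 0.33 on chromosome 2 and 0.22 on chromosomes 3 and 17, and -0.23 on chromosome 14 and -0.15 on chromosome 5. In bins of 10 Mb with at least 10 measured genes, 18 of 18 bins of chromosome 2 and 14 of 14 of chromosome 3 lay above the median of all genes, and 10 of 10 of chromosome 5 lay below it. On chromosome 1, 15 of 19 bins lay above. The highest of all 189 bins was chr1:200000001-210000000, with a median of 0.79 over 33 genes, of which 32 lay above the median of all genes and 11 were at least 2-fold higher. The next bin, chr1:210000001-220000000, which holds ATF3 and EPRS, had 0.66 over 17 genes, with 8 at least 2-fold higher and 1, TGFB2, lower. Not far from them, chr1:180000001-190000000 had the lowest median, -0.72 over 11 genes, of which 1 lay above the median of all genes. Chromosome 17 also divided, with -0.46 over the 51 genes of its first 10 Mb and 0.19 to 0.54 in every other bin.

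The highest bin was picked for its difference at this step and holds 11 of the 163 higher genes, so its course along the escalation is not separate from theirs. Relative to the median of all genes, chr1:200000001-210000000 stood 0.29 above C in T1, at -0.45 in T20, -0.56 in T40 and -0.50 in T80, and at 0.25 in T160, with T320 level with C. The median of all chromosome 1 genes went from T20 to T40 by -0.22 and from T40 to T320 by 0.31, and it was -0.67 in T40 and -0.35 in T320 against C. Chromosome 14 showed the opposite signs, with 0.22 from T20 to T40 and -0.23 from T40 to T320. DNA copy number was not analysed here, and its part in these values was not tested. With chromosome 1 left out before scaling, 130 genes were higher and 148 lower.

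**Figure D5:**
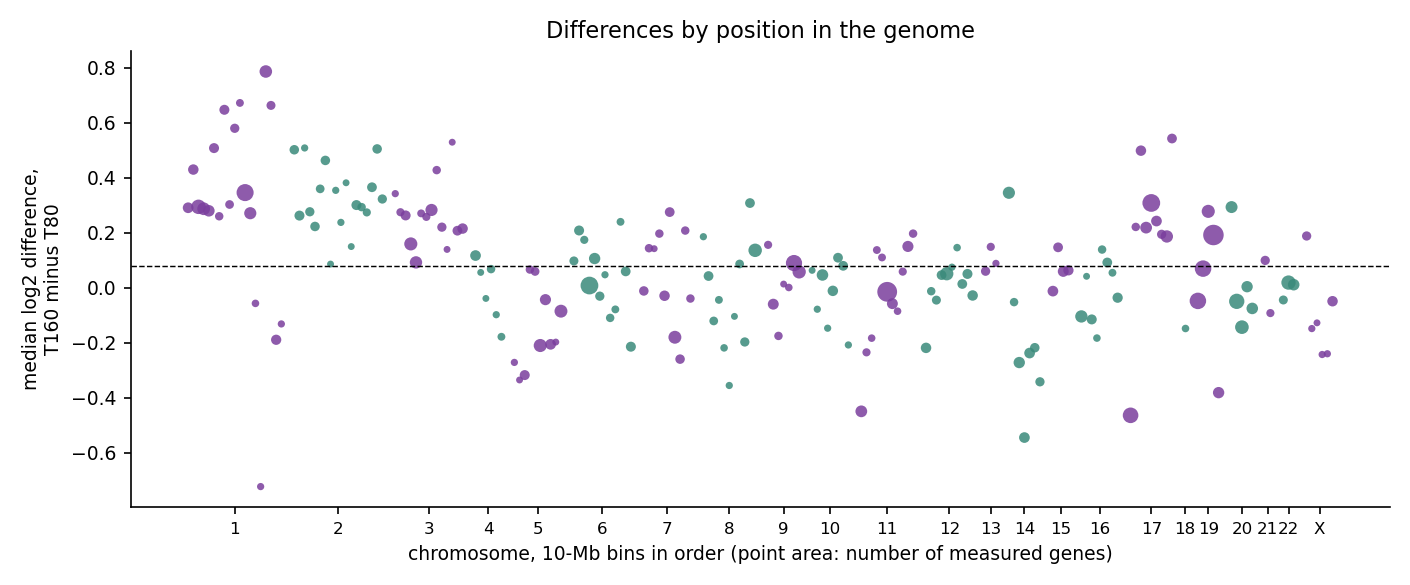
Median difference from T80 to T160 in bins of 10 Mb with at least 10 measured genes, in order along each chromosome; point area gives the number of genes, colours alternate between chromosomes and the dashed line is the median of all genes. Bins of chromosomes 1, 2, 3 and 17 lie mostly above the line, bins of 5 and 14 mostly below it, and neighbouring bins of chromosomes 1 and 17 lie on both sides.

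Over the 5716 genes that reached 50 CPM in any population, T160 was nearer to T320 than to T80. The root mean square of the log2 differences was 0.43 between T160 and T320 and 0.57 between T160 and T80, beside 0.37 between T80 and T40. T160 lay at 0.71 from T20 and at 0.70 from T40, and T80 at 0.61 and 0.37. The size of these distances also depends on the depth of each library, and T320 had fewer UMIs (2826113).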

How the data were processed

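Single cells of 10 populations, 1 library each, were measured by inDrop. The authors deposited UMI counts per gene and cell, whole numbers that are not normalized, and a table of states for part of the cells. The aligner, counting step, annotation and filters on cells were not given in the sources used here, and hg38, GRCh38 and Seurat 2.3.2 are named per the submitters' processing notes. The share of mitochondrial UMIs was computed from these deposited counts, as a percent of all UMIs. Each library lists a gene at 0 or in about 1% of cells and more, so low genes may read as 0. Cells were assigned by the concentration in their names, all of them were used, and doublets were not removed.

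Within each population, the counts of all its cells were added up per gene. Genes with over 10% of the 31-mers of their last 500 bases in any other gene (GENCODE 29 basic transcripts) were set aside, 3119 of 12345, and 28 genes without a value were left out. CPM was taken over the 9226 others. A gene counted as measured with 100 or more UMIs in the 10 populations together and 50 CPM or more in T80 or T160. The end of 319 of the 4674 measured genes overlaps an exon of another gene, and such reads cannot be told apart here. Intervals are exact (Poisson for counts, conditional binomial for folds, Clopper-Pearson for shares), at 95%, and cover counting error only. The limit for S5 among listed T80 cells took 3 counts instead. Gene positions are those of GENCODE 29 (GRCh38). Promoters are from RefSeq (GRCh38.p14).

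Named genes were, among measured genes with no overlapping end, the 24 largest rises and 10 largest falls, the 6 most abundant higher genes, the 6 largest rises among genes first at T160 and among those back at their T80 level in T320, the 3 largest differences of each list, and a fixed few such as PARP1 and CDKN2A. Further list members and lower genes were named after their values were seen. The members and lists were chosen with earlier results of these data known. Scaling was repeated with edgeR 4.0.16 (TMM) and DESeq2 1.42.0 (size factors) in R 4.3.3; other steps used Python 3.11.15, NumPy 2.4.6, SciPy 1.17.1, pandas 2.3.3 and matplotlib 3.10.9. Alternatives also varied the pseudocount, the minimum CPM, the sharing limit and the cells used. The calculation was tested on simulated data.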

Additional observations from a re-analysis of the deposited data

How the results depend on the processing

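Of the counts of genes at least 2-fold apart, 163 higher and 160 lower, most alternatives stayed within 1.5 times. CPM over all genes gave 74 lower genes and a median difference of 0.25, TMM a median of -0.038 and DESeq2 size factors -0.031. A pseudocount of 50 CPM gave 54 higher and 79 lower genes and left 7 lists at least 0.4 from the median of all genes, against 12 of 42. A minimum of 20 CPM left 5 of 43 such lists, and a minimum of 200 CPM gave 57 higher and 65 lower of 1250 genes tested. The cause was not tested, except that the 200 CPM minimum tests fewer genes and a larger pseudocount shrinks differences by construction. The epithelial list changed sign under the stricter sharing limit, to 0.051 relative to the median of all genes. Among 154 named genes measured, none of those at least 2-fold apart changed sign under the settings run. ALDH2 and NNT (CPM over all genes) and CD70 (TMM and mean over cells), all near 0, did. A pseudocount of 50 CPM took 30 below 2-fold, CPM over all genes 7 and listed cells only 6. Leaving out cells with shared barcodes and leaving out chromosome 1 were alternatives chosen after seeing the data. No paired analysis was possible because each population is 1 library, and no replicate could be left out. Depth limits genes under about 50 CPM, where each library has few UMIs.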
